A study of Rattus norvegicus with 77 samples.

Results

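The transcripts described here are those of the beta-defensins and of the 2 related sperm-associated antigens Spag11a and Spag11b, measured in sperm of Fischer 344 rats exposed to a testicular toxicant. They were taken as every gene whose probe set carried 1 gene symbol, where that symbol was Defb followed by a digit, or Spag11a or Spag11b. This gave 39 genes of the 14506 named in this way on the array, and the probe set with the highest mean stood for a gene where there was more than 1. That applied only to Defb15, whose 2 probe sets both differed by -0.03 on the log2 scale between arrays labelled HD and water. A further 3 probe sets carried several symbols, such as Defb5, Defb3 and Defb4 together, and were not counted.

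The sperm came from the cauda epididymides of adult males, 1 array per rat. As labelled, the HD group of 19 rats drank 0.33% 2,5-hexanedione (HD) for 3 months and was killed at the end of that time, beside the water group of 20 rats that drank plain water. The HD-recovery group of 20 rats had the same exposure and then 3 months of plain water, and the water-recovery group of 18 rats drank plain water throughout and was killed at that later age. HD is a toxicant that acts on the microtubules of Sertoli cells, the cells that support developing germ cells in the testis. The sperm were diffused out of punctured tissue and passed through a buffer meant to lyse somatic cells, and the study describes the preparations as free of somatic cells under the microscope and of ribosomal RNA peaks on gels. No purity value per rat was used here, so the array values describe the RNA of the sperm and of any other cells still present. A lower value cannot be told apart as fewer cells of a type or less RNA per cell.

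Beta-defensins are short, positively charged peptides held together by disulphide bonds between cysteines, and they kill or slow microbes by disturbing their membranes. Many members of the family are made by the epithelium of the epididymis, often in a single stretch of the duct and under androgen control, and are secreted onto sperm as these pass through. Several coat the sperm surface and are known for roles in motility, immune protection and passage through the female tract. Defb1 is the member expressed widely in epithelia of the kidney and airway, and Spag11a and Spag11b come from a locus that makes several epididymal splice forms with defensin-like ends.

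The genes lie in few places. In the RefSeq annotation of the rat genome (GRCr8), 38 of the 39 genes were matched by gene identifier, and they fell into 4 groups of neighbours with 19, 12, 5 and 2 of them. The group of 5 was Defb42, Defb41, Defb43, Defb30 and Defb44, in that order. The 250 bases before the gene start are shown for the 4 of these with a sequence in RefSeq, because their transcripts differed in how they varied between rats although the genes adjoin. Each is written 5′ to 3′ on the strand of the gene. Capitals mark the letters TATAAA, as in a TATA box, or AGAACA, as found in androgen response elements, on either strand (TTTATA and TGTTCT on the other).
Defb42, chr15:41417611-41417860, minus strand: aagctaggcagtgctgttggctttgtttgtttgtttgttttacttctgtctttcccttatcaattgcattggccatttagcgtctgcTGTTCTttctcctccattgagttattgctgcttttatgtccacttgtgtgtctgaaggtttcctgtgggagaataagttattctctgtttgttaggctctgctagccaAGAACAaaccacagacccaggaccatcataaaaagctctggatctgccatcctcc
Defb41, chr15:41430732-41430981, plus strand: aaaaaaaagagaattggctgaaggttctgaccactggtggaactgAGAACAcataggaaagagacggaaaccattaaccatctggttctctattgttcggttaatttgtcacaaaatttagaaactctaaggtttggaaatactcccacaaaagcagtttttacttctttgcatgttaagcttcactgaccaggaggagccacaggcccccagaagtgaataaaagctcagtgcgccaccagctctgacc
Defb43, chr15:41447625-41447874, plus strand: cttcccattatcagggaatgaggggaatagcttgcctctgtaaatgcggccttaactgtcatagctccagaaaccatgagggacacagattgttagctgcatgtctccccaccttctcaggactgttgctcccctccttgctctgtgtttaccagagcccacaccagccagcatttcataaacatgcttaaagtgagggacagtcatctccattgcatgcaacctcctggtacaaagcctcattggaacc
Defb30, chr15:41474459-41474708, minus strand: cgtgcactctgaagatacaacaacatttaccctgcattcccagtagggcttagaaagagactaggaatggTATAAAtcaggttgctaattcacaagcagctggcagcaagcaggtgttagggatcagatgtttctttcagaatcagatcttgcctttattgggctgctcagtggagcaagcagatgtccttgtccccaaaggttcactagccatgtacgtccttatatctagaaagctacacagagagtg
AGAACA or its complement occurred 2 times before Defb42 and 1 time before Defb41, TATAAA occurred 1 time before Defb30, and neither string was in the window of Defb43. Over the 24 members with a sequence, 9 (37.5%) held AGAACA, beside 17.5% of all 33469 promoter sequences. TATAAA was in 6 of the 24 (25%), beside 12.9% of all. CCAAT, searched on both strands, was in 9 (37.5%), beside 34% of all. The median GC content of these windows was 47.6% for the members and 51.2% for all promoters. These are matches of letters and not binding sites.

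The deposited values were read as log2 intensities, and array medians lay between 6.51 and 6.78. No filter on low values was applied, and 5 of the 39 members had a mean in the lower quartile of all probe sets. Arrays within a group differed widely, and 41.9% of the variance left after removal of the group means lay on 1 component. By a rule on how well each array correlated with its own group, 10 arrays stood apart: HD replicates 3, 4, 5 and 14, water replicate 20, HD-recovery replicates 2, 9 and 16, and water-recovery replicates 12 and 15. All were kept, and values without them are given where they change a result. Values of different probe sets are not set against each other as levels, since probes differ in brightness. A list of 24 sperm and spermatid transcripts, among them the protamines, had group means of 9.37 to 9.67, and the mean of 26 epididymal epithelial markers was 7.26 to 7.35. These lists hold different probe sets, so their means are likewise not compared with each other as levels.

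Part of the beta-defensins had a wide spread between rats of the same group. The within-group standard deviation (SD, on the log2 scale, group means removed, 77 arrays) had a median of 0.258 over the 39 members and 0.211 over all probe sets. Of the members, 26 lay above the median of all probe sets, 16 above the upper quartile of 0.285 and 9 above the 95th percentile of 0.467. The SD was 0.820 for Defb39, 0.745 for Defb23, 0.726 for Defb43, 0.714 for Defb30, 0.690 for Defb44 and 0.685 for Defb38. At the other end it was 0.168 for Defb105b, 0.161 for Defb27 and 0.150 for Defb29, below the median of all probe sets. The trait was not particular to the defensins. In the list of epididymal markers the SD ran from 0.134 for Spink8 to 0.757 for Gpx5, with 0.706 for Adam7 and 0.656 for Ces5a. No test was made of these spreads.

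**Figure D1:**
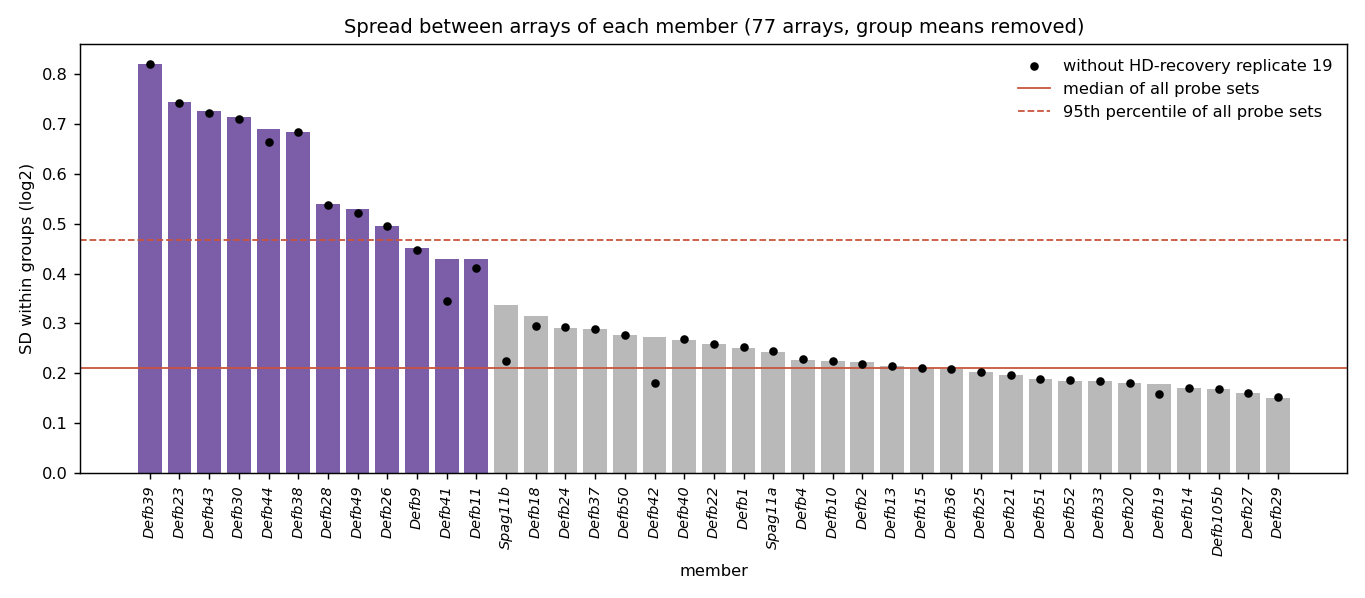
The within-group SD of each member on the log2 scale (bars, 77 arrays), with the members above 0.4 in purple and black points giving the SD without HD-recovery replicate 19. The solid line marks the median of all probe sets at 0.211 and the dashed line their 95th percentile at 0.467, and 9 bars pass the dashed line.

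For Defb39 the values spanned more than 2 log2 units within each group. In the water group the lowest value was 7.52, the median 9.17 and the highest 10.30. In the HD group they were 7.61, 8.76 and 10.87. In the HD-recovery group they were 7.51, 9.51 and 10.64, and in the water-recovery group 7.67, 8.88 and 10.28. The groups overlapped over nearly their whole range, and the highest array of all was HD replicate 3, 1 of those that stood apart. Without the 10 arrays that stood apart the SD of Defb39 was 0.654, and that of Defb23 was 0.689 and of Defb43 0.620, so the order of the 3 changed.

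A break in the spread, chosen after the values were seen, separated 12 members with an SD above 0.4 from the other 27. The last inside it were Defb41 (0.430) and Defb11 (0.429), and the first outside was Spag11b (0.336). The 12 were Defb39, Defb23, Defb43, Defb30, Defb44, Defb38, Defb28, Defb49, Defb26, Defb9, Defb41 and Defb11, and they are called the wide members below. The brightest members were all wide: Defb43 (mean 9.90), Defb23 (9.70), Defb39 (9.18), Defb30 (9.00), Defb38 (8.50) and Defb28 (8.37). Among the other 27 the highest mean was 7.86, for Defb25. Some wide members were dim, such as Defb44 (6.43) and Defb11 (6.95). Whether the spread followed the brightness of the probes was not tested. Without HD-recovery replicate 19 the SD of Defb41 was 0.344 and that of Spag11b was 0.225. The wide members were drawn from all 4 groups of neighbours: 4 of 5 in the group with Defb43, 4 of 19 in the group with Defb1, 3 of 12 in the group with Defb23, and 1 of 2 in the group with Defb49. In the group whose promoters are shown above, Defb42 was the exception, with an SD of 0.273 beside 0.430 for its neighbour Defb41.

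The wide members went up and down together from rat to rat. Over the 66 pairs among them the Pearson correlation of group-centred values across the 77 arrays was positive in all 66, with a median of 0.751 and a range of 0.266 to 0.943. The closest pairs were Defb28 with Defb38 (r = 0.943), Defb38 with Defb39 (0.933) and Defb39 with Defb43 (0.928), and each of these pairs except the second joins genes from different groups of neighbours. Without the arrays that stood apart the median was 0.721. Among the 27 other members the median over 351 pairs was 0.0746, and between the 2 sets it was -0.21, with 97 of 324 pairs above 0. All pairs share the same arrays and their common component, so these are descriptions without a test.

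**Figure D2:**
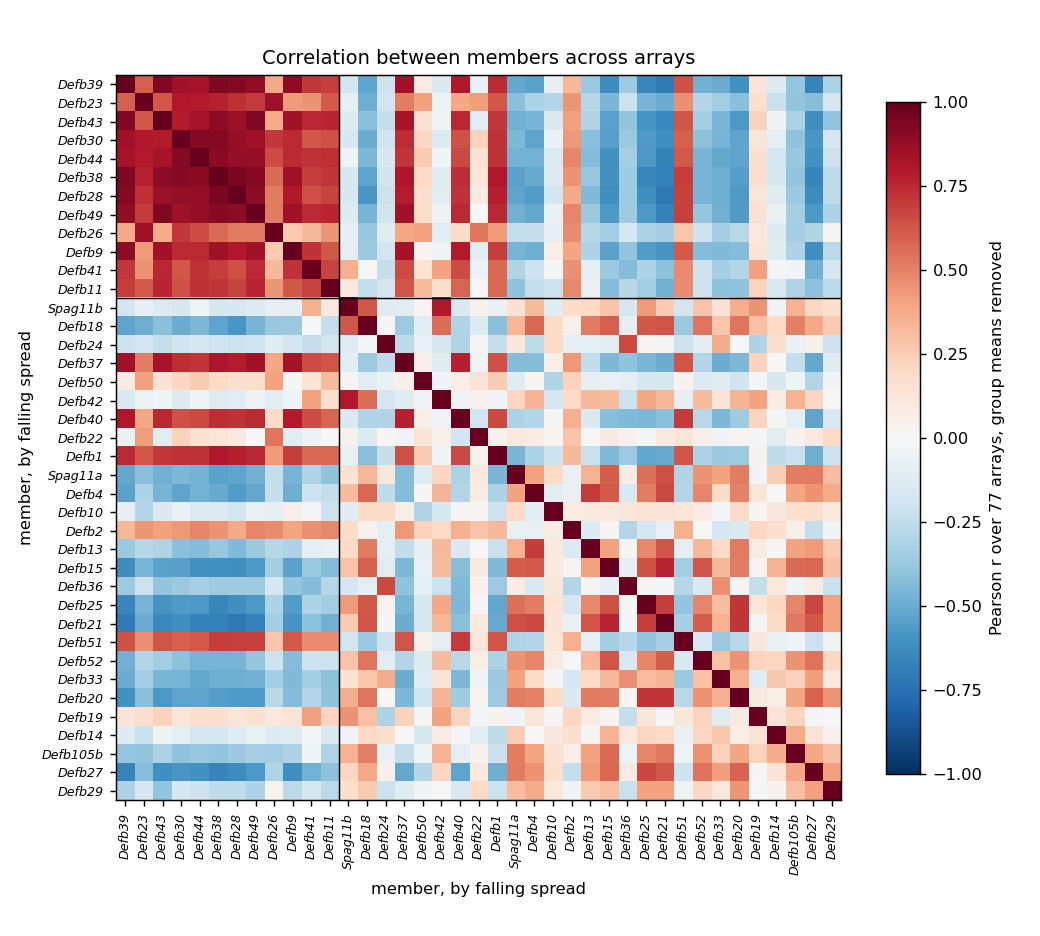
Pearson correlation of group-centred log2 values over 77 arrays for each pair of the 39 members, ordered by falling spread, with black lines around the 12 wide members. The block of wide members is red throughout (66 of 66 pairs above 0), and several members outside it, such as Defb37, Defb40, Defb1 and Defb51, share its colour pattern.

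The common component was not equally present in all members. It carried 71.6% of the within-group variance of Defb39, 75.9% of that of Defb28 and 77.5% of that of Defb21, whose values ran opposite to the wide members. It carried 42.5% for Defb23, 30.4% for Defb41 and 19.6% for Defb26. For Spag11b the share was 5.5%, for Defb42 5.4% and for Defb22 0.0755%. The median was 40.3% over the members and 32.7% over all probe sets, and 12 members had a share above 50%, as did 29.7% of all probe sets.

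Most transcripts whose pattern was nearest to that of Defb39 were not defensins. The 6 genes with the highest correlation over the 77 arrays were Stmp1 (r = 0.938), Txn1 (0.937), Acer2 (0.936), Sh3bgrl3 (0.936), Arf1 (0.934) and Atp6v0d1 (0.933). Txn1 encodes the redox protein thioredoxin, Arf1 a small GTPase of the Golgi, and Atp6v0d1 a subunit of the proton pump of acidic vesicles. Defb38 came next, at rank 7, and Defb43 at rank 13.

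The 3 members with the widest spread were set against the means of 3 marker lists, 9 relations in all, with group means removed. With the epididymal epithelial list the correlation was r = 0.572 (Spearman's rho 0.714) for Defb39, 0.665 (0.785) for Defb23 and 0.609 (0.727) for Defb43. With the leukocyte list of 25 genes it was r = 0.762 (rho 0.807), 0.583 (0.593) and 0.767 (0.801). Each of these had a permutation p of 1e-05, the smallest that 100000 permutations can give, and a Benjamini-Hochberg adjusted p of 1.5e-05 over both coefficients of the 9 relations (two-sided). With the sperm list it was r = 0.463 for Defb39 (adjusted p = 5.5e-05), 0.294 for Defb23 (adjusted p = 0.0097) and 0.375 for Defb43 (adjusted p = 8e-04) by the same permutation test. These 3 members were chosen for their spread, and over all probe sets 41.9% of the variance within groups lay on 1 component, so these p-values do not set the defensins apart from other transcripts. Of all probe sets, 4.59%, 1.02% and 3.03% correlated with the epididymal list at least as highly as Defb39, Defb23 and Defb43. For the leukocyte list the shares were 1.95%, 9.32% and 1.77%, and for the sperm list 11.7%, 20.3% and 16.4%.
The relations with each of the lists were positive in each group, and those with the sperm list were the weakest in most. Within groups, r with the epididymal list was 0.491 to 0.773 for Defb39, 0.582 to 0.888 for Defb23 and 0.566 to 0.803 for Defb43. With the leukocyte list it was 0.614 to 0.930, 0.482 to 0.780 and 0.692 to 0.830. With the sperm list it was 0.361 to 0.541, 0.216 to 0.412 and 0.230 to 0.488. Without the 2 arrays farthest from the median of the list, the epididymal r was 0.672, 0.792 and 0.702, and the leukocyte r was 0.810, 0.617 and 0.810. The sperm r was then 0.471, 0.287 and 0.407. With the 10 arrays that stood apart left out, the sperm relations dropped to r = 0.231, 0.0896 and 0.137. The epididymal ones were then 0.477, 0.619 and 0.531, and the leukocyte ones 0.726, 0.540 and 0.709.

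The first comparison asked whether the beta-defensins differed after 3 months of HD. None of the 39 members was called in arrays labelled HD against arrays labelled water at a q-value under 0.05 (limma, Storey's q over all probe sets, 19 and 20 arrays), where 0.472% of all probe sets were called. With Benjamini-Hochberg adjustment the count was also 0. At an unadjusted p under 0.05 limma gave 9 members (23.1%), 1 of them higher and 8 lower by mean in HD, beside 8.3% of all probe sets (3.4% higher and 4.91% lower). The smallest q of a member was 0.173. Differences were taken as the HD mean minus the water mean, as labelled. This direction is opposite to the published one: of 70 listed transcripts that could be matched by symbol, 69 had the opposite sign in the deposited table. Whether the labels of these groups are exchanged was not settled by the files. Groups keep the names on their labels, and each sign of a difference between HD and water would turn if they were. The interaction and the comparisons between time points would then set other arrays against each other and take other values.

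Defb43 had the smallest p. Its lowest, median and highest log2 values were 8.25, 10.23 and 10.94 in the water group and 8.40, 9.20 and 10.99 in the HD group. The groups overlapped over their whole range while their medians lay about 1 unit apart, and the difference of the means was -0.67 (SE 0.21, limma p = 0.0029, q = 0.173), or 1.59-fold. In the HD-recovery group the values were 8.50, 10.20 and 11.33, and in the water-recovery group 8.82, 10.07 and 11.09, so that only the HD group had a median below 10.

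Defb23, studied in rats as 1 of several epididymal defensins that bear on sperm motility, had values of 8.30, 9.87 and 11.29 in the water group and 7.81, 9.21 and 10.47 in the HD group. The difference was -0.62 (SE 0.24, limma p = 0.0131, q = 0.349). Defb49 had values of 6.60, 8.02 and 8.62 in the water group and 6.84, 7.36 and 8.84 in the HD group, with a difference of -0.46 (SE 0.16, limma p = 0.00648, q = 0.256). In both the HD median lay below the water median, the groups overlapped, and the highest HD array was replicate 3.

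Members with little spread entered the list by smaller differences. Defb51 had values of 7.48, 7.68 and 7.94 in the water group and 7.25, 7.44 and 8.25 in the HD group, and differed by -0.19 (SE 0.06, limma p = 0.00457, q = 0.216). Its highest HD value was again replicate 3, and without that array the difference was -0.23 at q = 0.0143, past the threshold. Without that array 11 of all 29214 probe sets were called higher and 240 lower, beside 5 and 133 with every array kept. Defb19 had values of 6.64, 6.90 and 7.02 in the water group and 6.33, 6.72 and 7.13 in the HD group, with a difference of -0.14 (SE 0.05, limma p = 0.00601, q = 0.248). Defb22, the rodent form of the main defensin of the sperm surface coat, differed by -0.23 (SE 0.09, limma p = 0.00977, q = 0.31), with medians of 5.87 in water and 5.53 in HD. The remaining 2 of the 8 were Defb26 (-0.38, limma p = 0.0336) and Defb38 (-0.45, limma p = 0.0397).

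Spag11b was the only member with a higher mean in HD at an unadjusted p under 0.05. Its values were 6.86, 7.25 and 7.65 in the water group and 6.74, 7.50 and 8.13 in the HD group, a difference of 0.20 (SE 0.08, limma p = 0.0205, q = 0.434). The probe set that Spag11b shares with Spag11bl differed by 0.23 (SE 0.08, q = 0.316), and signal from near-identical copies cannot be told apart on such probes. Spag11a had medians of 6.06 in water and 6.25 in HD and a difference of 0.15 (SE 0.08, q = 0.659). Defb36 (0.15, q = 0.625) and Defb33 (0.13, q = 0.627) had the next smallest p-values on that side, and the highest HD value of Defb36, 8.01, came from replicate 5, an array that stood apart, without which its difference was 0.09. Defb1 had medians of 7.21 in water and 7.10 in HD and a difference of -0.12 (SE 0.07, q = 0.753).

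**Figure D3:**
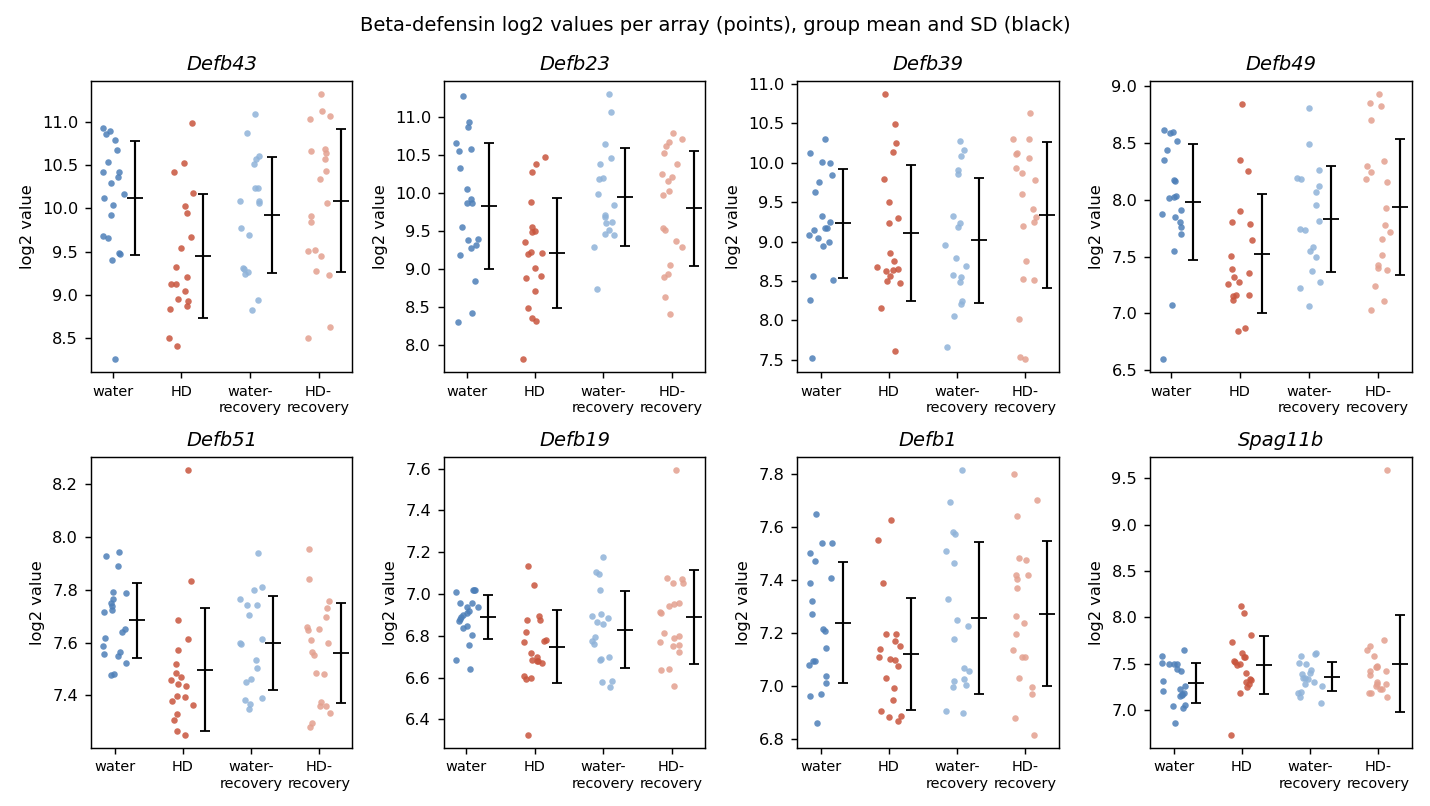
Log2 values of 8 members on each array (points) in the 4 groups, and black marks for the mean and SD of each group. The HD points of Defb43 centre on a mean of 9.45 and those of the other groups on 9.93 to 10.12, the groups overlap in every panel, and a single HD-recovery array lies at 9.59 in Spag11b.

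The wide members shared a direction. Of these 12, 11 had a lower mean in HD than in water, with a median difference of -0.382, and the exception was Defb9. Among the other 27 members 13 were lower, with a median of 0.0124, and among all probe sets 43.7% were lower, with a median of 0.0106. With the labels exchanged these would read as 11 of 12 higher. The counts of the wide members were the same after centring of the array medians and after quantile normalization. The mean of the 12 was 8.07 ± 0.558 (SD, n = 19) in HD and 8.39 ± 0.511 (SD, n = 20) in water. Since the 12 vary together, they are not 12 separate observations, and their number carries no test.
Among the lists of other cell types, the leukocyte list shared this direction most clearly. Of the fibroblast and smooth muscle list 9 of 12 were lower (median -0.0395). Of the sperm list 9 of 24 were lower (median 0.16), and of the Sertoli cell list 3 of 16 (median 0.0451). In the leukocyte list 20 of 25 genes had a lower mean in HD, with a median difference of -0.237 and 5 called lower, and the list mean ranged from 7.14 to 7.95 in HD and from 7.27 to 7.97 in water. The 5 were Cx3cr1 (-0.36, q = 0.00476), Ccr2 (-0.45, q = 0.00917), Cd4 (-0.56, q = 0.0356), Lyz2 (-0.95, q = 0.0423) and Fcer1g (-0.68, q = 0.0427) by limma, and the study had listed all 5 from these samples, so they are no independent evidence. In the epididymal list 13 of 26 were lower, the median difference was 0.000349 and none was called by limma with either adjustment (5 at an unadjusted p under 0.05, 2 higher and 3 lower). Its mean ranged from 7.02 to 7.76 in HD and from 6.99 to 7.67 in water. On log2 intensities no marker can be read as at 0, and the part of leukocytes or other cells in the values of the defensins was not tested.

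The call depended on the arrays used. With the 5 such arrays of these groups left out, 23 of 39 members were called (limma, Storey's q; 59%), 15 lower and 8 higher, where 30.2% of all probe sets were called. With Benjamini-Hochberg adjustment, an alternative added after the data were seen, it was 11 members (28.2%), 8 lower and 3 higher, beside 13.5% of all. Defb43 then differed by -0.94 (q = 0.00111 by Storey and 0.00295 by Benjamini-Hochberg), Defb51 by -0.25 (0.00117 and 0.00312) and Defb49 by -0.66 (0.00142 and 0.00379), all from limma. All 12 wide members were lower in this setting, with a median difference of -0.573. The HD arrays left out had wide-member means of 9.37, 9.07, 8.72 and 8.48, beside a group median of 7.83. The water array left out was at 8.34, beside 8.46. Leaving out these HD arrays lowers the HD mean of the wide members, so the larger differences are in part set by the choice of arrays. With the common component as a covariate, limma called 5 members, Defb43, Defb49, Defb38, Defb51 and Defb23, all lower, beside 5% of all probe sets. That component was computed from the same values, the wide members included.

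The second comparison asked what remained after 3 months on plain water. None of the 39 members was called between HD-recovery and water-recovery arrays (limma, q under 0.05, 20 and 18 arrays), as was 0% of all probe sets, and none had an unadjusted p under 0.05, beside 4.51% of all (2.86% higher and 1.65% lower). Benjamini-Hochberg adjustment also gave 0. The median difference was 0.03 over the members and -0.01 over all probe sets. The largest was that of Defb39, with medians of 9.51 in HD-recovery and 8.88 in water-recovery and a difference of 0.32 (SE 0.26, q = 1). Defb43 differed by 0.16 (SE 0.23), Defb49 by 0.11 (SE 0.17) and Defb23 by -0.16 (SE 0.22), each at q = 1 by limma. Single arrays moved these values: Defb43 was at 0.10 without water-recovery replicate 9 and 0.25 without HD-recovery replicate 9, and Defb23 was at -0.08 without water-recovery replicate 12 and also without HD-recovery replicate 9.
The members with the smallest p-values showed small differences. Defb40 had medians of 6.92 in HD-recovery and 6.78 in water-recovery and a difference of 0.15 (SE 0.09), and Defb41 medians of 8.00 and 7.80 and a difference of 0.25 (SE 0.16). Without HD-recovery replicate 19 the difference of Defb41 was 0.14. On the other side were Defb24 (-0.12, SE 0.06), Defb52 (-0.06, SE 0.05) and Defb29 (-0.05, SE 0.05). Defb1 differed by 0.02, Spag11a by 0.01 and Spag11b by 0.14, and Spag11b by 0.03 without replicate 19.
Of the wide members 10 of 12 had a higher mean in HD-recovery, with a median difference of 0.117, where 53.6% of all probe sets had a lower one. Without the 5 recovery arrays that stood apart limma called 8 members (20.5%) by Storey's q, beside 13.1% of all probe sets, and 3 (7.69%) by Benjamini-Hochberg, beside 4.8%. The 3 were Defb39 (0.76), Defb40 (0.27) and Defb24 (-0.21). The HD-recovery arrays left out had wide-member means of 7.29, 7.36 and 7.72, below the group median of 8.40. The water-recovery arrays left out were at 9.16 and 8.69, above their group median of 8.22. Leaving these out thus raises the first group and lowers the second in the wide members.

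**Figure D4:**
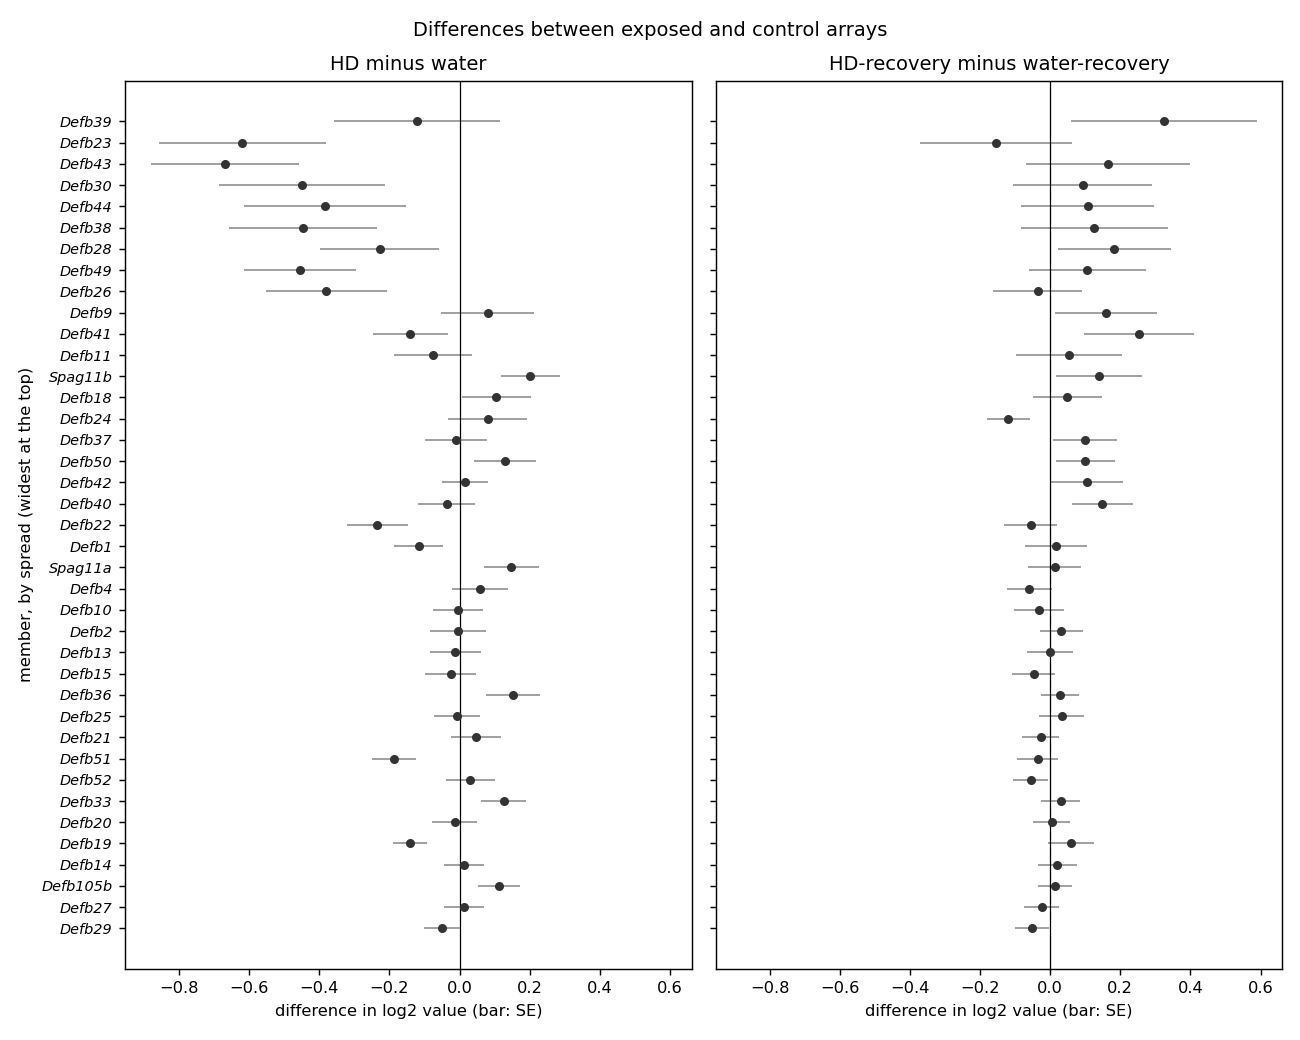
Difference in mean log2 value (points) with its standard error (bars) for each of the 39 members, ordered from the widest spread at the top, for HD minus water on the left and HD-recovery minus water-recovery on the right. On the left 11 of the 12 wide members lie below 0 and reach -0.67, and on the right 10 of the 12 lie above 0.

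The test of whether the 2 exposure differences were unequal used all 77 arrays in 1 fit. No member passed q under 0.05 for this interaction by limma with either adjustment, as did 0% of all probe sets, while 4 members had an unadjusted p under 0.05 (10.3%), beside 3.38% of all (1.36% above and 2.02% below 0). All 4 were below 0. Those were Defb43 (-0.83, SE 0.32, p = 0.0118), Defb19 (-0.20, SE 0.08, p = 0.0161), Defb49 (-0.56, SE 0.24, p = 0.0197) and Defb41 (-0.39, SE 0.19, p = 0.0437), each at q = 1. The smallest p-values on the other side were those of Defb24 (0.20, SE 0.13) and Defb36 (0.12, SE 0.10), which were 0.10 and 0.06 without HD replicate 5. All 12 wide members had a more negative difference at the end of exposure than after recovery, with a median of -0.455, beside 42.2% of all probe sets. This too rests on the labels as given. Without the arrays that stood apart limma called 29 members by Storey's q and 23 by Benjamini-Hochberg, where 56.8% and 33.4% of all probe sets were called. In this setting 66.7% of the members had an unadjusted limma p under 0.05, fewer than the 74.4% called by Storey's q. The q was thus looser there than no adjustment. Leaving these arrays out moved the wide members in both exposure differences, as given above.

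Between time points, age and the time of processing cannot be told apart. If only the HD and water labels were exchanged, each of these comparisons would set exposed rats against unexposed ones. Between HD-recovery and HD arrays no member was called by limma with either adjustment, beside 0.0308% of all probe sets, and 6 had an unadjusted p under 0.05 (15.4%), 4 higher and 2 lower, beside 7.55% of all (3.9% higher and 3.65% lower). Defb43 was at 0.64 (SE 0.24, p = 0.0102), Defb23 at 0.59 (SE 0.23, p = 0.0127) and Defb49 at 0.41 (SE 0.17, p = 0.0226) by limma. All 12 wide members were higher in HD-recovery, with a median of 0.231, where 56.1% of all probe sets were lower. Here too the 12 vary together and are not separate observations. This comparison shares the HD arrays with the first. Without the arrays that stood apart limma called 32 members by Storey's q and 26 by Benjamini-Hochberg, beside 57.9% and 36.3% of all probe sets. Storey's q was again looser than no adjustment, with 82.1% of the members called and 74.4% at an unadjusted limma p under 0.05. The arrays left out were high in the wide members in HD and low in HD-recovery, which moves the 2 groups apart.
Between water-recovery and water arrays no member was called by limma with either adjustment, beside 0% of all, and 2 had an unadjusted p under 0.05 (5.13%), both lower, beside 6.52% of all (2.9% higher and 3.62% lower). They were Defb14, an inducible defensin of skin and other epithelia, at -0.14 (SE 0.05, limma p = 0.0107), and Defb29 at -0.12 (SE 0.05, limma p = 0.016). Both had differences of the same size between HD-recovery and HD, -0.13 (SE 0.06) for Defb14 and -0.12 (SE 0.05) for Defb29. The 2 highest on the other side were Defb13 (0.13, SE 0.07) and Defb50 (0.15, SE 0.09), the latter at 0.09 without water-recovery replicate 12. Of the 12 wide members 10 had a lower mean in water-recovery, with a median difference of -0.173, beside 49.1% of all probe sets. The wide members thus also shared a direction between groups that are both labelled as unexposed. Without the arrays that stood apart the count called was also 0.

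One array was extreme in several members and in part of the epididymal markers. HD-recovery replicate 19, which did not stand apart by the correlation rule, was the highest of all 77 arrays in 6 members: Defb11, Defb18, Defb19, Defb41, Defb42 and Spag11b. Defb41 was at 10.27 on this array, where the other 19 of its group ran from 7.35 to 8.70. Spag11b was at 9.59, where the others ran from 7.14 to 7.76. Defb42 was at 9.31, where the others ran from 7.16 to 7.79. Defb42 and Defb41, whose promoters are shown above and whose genes adjoin, thus both peaked on this array. Defb44, of the same group of neighbours, was at 8.11, where the others ran from 5.34 to 7.31. Their neighbours Defb43 and Defb30 were at 11.04 and 9.92, within the range of the others.
Part of the epididymal markers were high on the same array. It was the highest of 77 in 10 of the 26 markers of the list. Gpx5, a secreted glutathione peroxidase of the caput, was at 11.85 beside a median of 6.87 over the other 19 arrays. Rnase10 was at 10.51 beside 6.60, Adam7, a membrane protein that the caput epithelium passes to sperm, at 11.36 beside 8.58, and the lipocalins Lcn5, Lcn8 and Lcn9 at 10.28, 9.86 and 9.73 beside 6.60, 6.43 and 6.95. By contrast the array was the lowest of 77 in Krt14, a keratin of basal epithelial cells, at 6.08 beside 6.82. It ranked 31 of 77 in Rnase9, 35 in Lcn6 and 75 in Wfdc2. Its leukocyte list mean of 8.21 was also the highest of its group, whose mean was 7.63. Why this array differed was not tested.

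**Figure D5:**
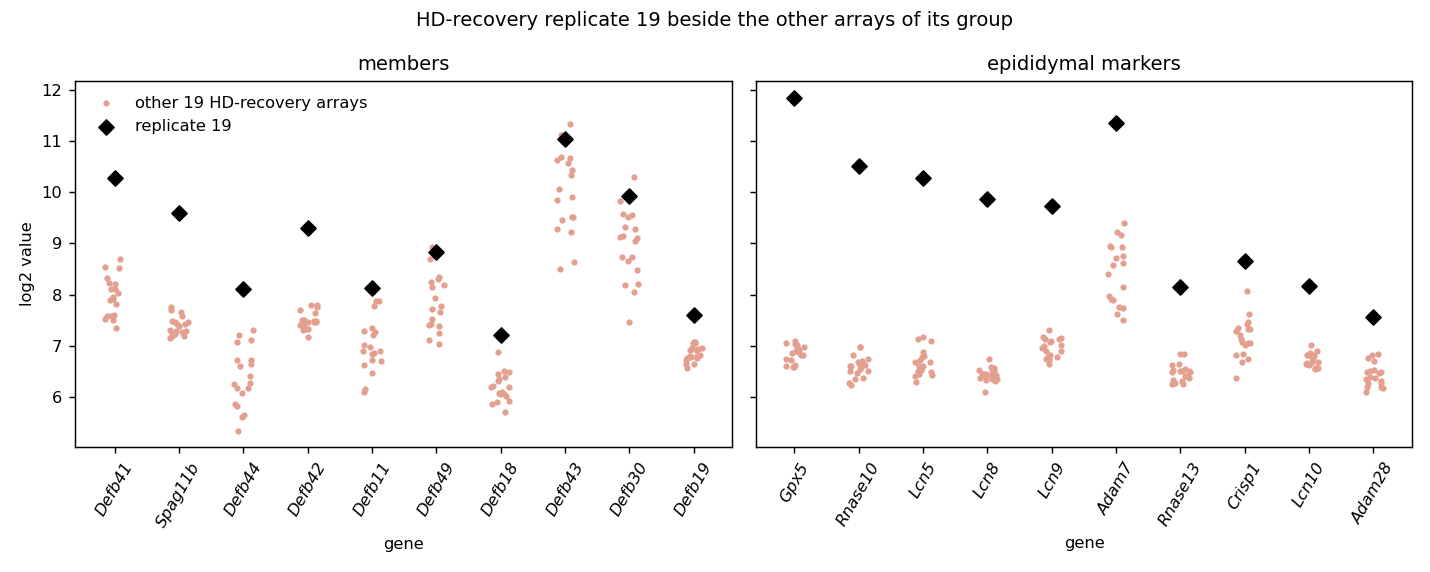
Log2 values of 10 members (left) and 10 epididymal markers (right) on HD-recovery replicate 19 (black diamonds) and on the other 19 HD-recovery arrays (points). The diamond lies above all points in Defb41, Spag11b, Defb44 and Defb42 and reaches 11.85 in Gpx5, while in Defb43 and Defb30 it lies among the points.

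Over 77 arrays the correlation of Spag11b with Defb42 was r = 0.798 (Spearman's rho 0.462), the highest among the members with little spread, and without that array it was 0.535 (0.422). Other arrays were extreme in other members: HD replicate 3 was the highest of 77 in 9 members, 5 of them wide, and HD replicate 5 was the lowest in 13 members, none of them wide. Both of these stood apart by the correlation rule. Water replicate 12, which did not, was the lowest in 5 wide members, and without it Defb43 differed by -0.77 between HD and water at q = 0.0338 by limma. In that fit 14 of all 29214 probe sets were called higher and 307 lower, beside 5 and 133 with every array kept.

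Other host-defence transcripts and receptors were counted in the same fits. Of 39 further host-defence genes, among them cathelicidin, WAP-domain inhibitors, lysozymes and alpha-defensins, 1 was called lower in HD (Lyz2, given above) and none higher, with a median difference of 0.0177. Bpi, a lipid-A binding protein of granules, had the next smallest p, with a difference of 0.52 (SE 0.20, q = 0.348). Of 4 receptors at which defensins are known to act, Ccr2 was called lower, while Ccr6 differed by 0.03 (SE 0.06, q = 0.98). Of 24 sperm and spermatid transcripts Odf1, of the outer dense fibres, was called lower (-0.22, q = 0.0445), while at an unadjusted p under 0.05 there were 9 higher and 7 lower, and the median was 0.16. Of 16 Sertoli cell transcripts Clu was called higher (1.11, q = 0.0224), and of 12 fibroblast and smooth muscle transcripts Dcn was called lower (-1.09, q = 0.00917), both of which the study had listed from these samples. Between the recovery groups no gene of these lists was called by limma with either adjustment. At an unadjusted p under 0.05 there were 9 of 24 sperm and spermatid transcripts, 3 of 26 epididymal markers and 1 of 39 host-defence genes with a higher mean in HD-recovery, 3 of 12 fibroblast and smooth muscle transcripts with a lower one, and none of the leukocyte, receptor or Sertoli cell lists.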

How the data were processed

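Sperm RNA from each of 77 rats was hybridised to its own Affymetrix rat gene array, and groups were taken from the sample labels, which call the arrays biological replicates. The authors deposited 1 normalised value per probe set and array, read here as log2 from its range; how background, summarisation and scaling were done is not given in the sources used here, and the submitters' processing notes name limma. No value was rescaled before the main tests. Of 29214 probe sets, 15310 carried 1 gene symbol, 323 several and 13581 none in the platform annotation.

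Following the study's methods, limma 3.58.1 (lmFit and eBayes, R 4.3.3) was run on all probe sets for each pair of groups, without covariates, and for the interaction on all 4 groups. Storey q-values were computed over all probe sets, and those under 0.05 were called. An array stood apart when its median correlation with its group was more than 3 scaled median absolute deviations below the group median. The alternatives were median centring, quantile normalisation, array weights, leaving out each array in turn or all arrays that stood apart, the first principal component or the replicate number above 10 as a covariate, a replicate block, Benjamini-Hochberg adjustment, a filter on dim probe sets, the mean over probe sets and 1 fit of all groups. Scripts were tested on simulated data with independent noise for each probe set. These held no common component and no arrays that stood apart, so the simulation does not cover those features of the real arrays. The number of arrays limits the precision.

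The members and the marker lists were chosen with earlier results of these data known. Members were named if they had the smallest p-values in either direction of a comparison, the largest or smallest spread or the highest means, and Defb1, Spag11a and Spag11b were always named. The members and genes of other lists with an unadjusted p under 0.05, and arrays with extreme values, were added after their values were seen. Marker correlations used 100000 permutations. Promoter sequences and gene order came from RefSeq tables of GRCr8, and Spag11b was not matched there.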

Additional observations from a re-analysis of the deposited data

How the results depend on the processing

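Which arrays entered, and with what weight, moved the number of members called. In HD against water (0 called) it was 16 with array weights, 23 without the arrays that stood apart (11 with Benjamini-Hochberg) and 5 once the first principal component was a covariate. In HD-recovery against water-recovery (0 called) it was 8 without those arrays (3 with Benjamini-Hochberg). In HD-recovery against HD (0 called) it was 30 with array weights, 32 without those arrays (26 with Benjamini-Hochberg) and 3 with the component. For the interaction (0 called) it was 25, 29 (23) and 3. With the component 3.09% and 1.22% of all probe sets were called in these last comparisons. In water-recovery against water it was 0 in all of these. Under array weights 17.7%, 44.5% and 33.7% of all probe sets were called in HD against water, HD-recovery against HD and the interaction. No Benjamini-Hochberg count was made with array weights. In HD-recovery against HD with array weights, Storey's q called 76.9% of the members, while 71.8% had an unadjusted limma p under 0.05. There, as without the arrays that stood apart in this comparison and the interaction, the q was looser than no adjustment. Centring, quantile normalisation, Benjamini-Hochberg alone, the filter on dim probe sets, the mean over probe sets, the replicate number covariate and the single fit of all groups gave 0 in each comparison they were run for. Leaving out 1 array at a time gave 0 to 1 members in HD against water (Defb51 without HD replicate 3, Defb43 without water replicate 12) and 0 in the others. Without HD replicate 3, 11 of all 29214 probe sets were called higher and 240 lower, and without water replicate 12 it was 14 and 307. With every array kept it was 5 and 133. The number of members with an SD above 0.4 was 12 after centring, 10 without the arrays that stood apart and 11 without HD-recovery replicate 19, the last added after the data were seen.

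With the replicate number as a block (replicate block), 1 member, Defb43, was called in HD against water (-0.69, q = 0.0407), beside 0.534% of all probe sets, and none elsewhere, beside 0.0856% in HD-recovery against HD and 0% in the others. Arrays with the same number in HD and water had deviations correlating from -0.575 to 0.654 (19 pairs, 8 over 0.1, 2 best with their own number). In the recovery groups it was -0.414 to 0.640 (18 pairs, 8 over 0.1, 4 best with their own). The medians were 0.0304 and 0.044, beside 0.00249 and -0.0132 over all pairs of arrays. Whether arrays with the same number share anything else was not tested. In HD-recovery against water-recovery the sign turned for Defb1 with the block (-0.0083) and over single arrays left out (-0.0101 to 0.0506). It turned for Spag11a with array weights (-0.026), without the arrays that stood apart (-0.061) and over single arrays left out (-0.0173 to 0.0407), and for Defb23 with array weights (0.049) and without those arrays (0.078). For Defb27 in HD against water the range was -0.0048 to 0.0366. None of these was called. The first component and the rule for arrays that stand apart were computed from the same values as the tests, and the cause of the changes was not tested.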
